A study of Mus musculus with 16 samples.

Results

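A set of 6 transcripts of the aerocyte, the lung capillary cell specialised for gas exchange, was followed over mouse lungs injured with bleomycin: Ednrb (ENSMUSG00000022122), Car4 (ENSMUSG00000000805), Apln (ENSMUSG00000037010), Tbx2 (ENSMUSG00000000093), Fibin (ENSMUSG00000074971) and Kitl (ENSMUSG00000019966). They were chosen by name as markers of that cell, with earlier results of these data known. They are 6 of the 53647 genes in the deposited table. All 6 were among the 17003 genes that entered the tests, and each was above 1 TPM in all 16 libraries, so the filter on low values chose none of them. TPM is a transcript's share of the library, corrected for its length, so levels can be set side by side between genes. The study holds RNA-seq libraries of whole lung in 4 groups of 4: control lungs, bleomycin lungs, and bleomycin lungs that also received an adenoviral vector, either one for the reporter GFP (Ad-GFP) or one named for ATP12A (Ad-ATP12A), a pump that exchanges protons for potassium. Bleomycin is an antitumour drug that injures the lung and leaves fibrosis in mice, and the last 3 groups share it, so their 12 libraries are called exposed here. Each group has 2 libraries in each of 2 batches, and a library is named by batch and replicate (b2r1 is batch 2, replicate 1). The labels give no strain, age, sex, dose, day, type of control or meaning of a batch. They do not say that replicates were separate animals, so p-values measure the spread between libraries. That spread may be technical in part, although Xist, given below, differed between the replicates of some pairs.

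Gas crosses the lung through a capillary net built of a pair of endothelial cell types. Aerocytes are large, thin cells pressed against the alveolar type 1 epithelium, and general capillary cells act as their progenitors and carry vasomotor and repair functions. The pair signal to each other: aerocytes make apelin (Apln) and stem cell factor (Kitl), and general capillary cells bear the receptors Aplnr and Kit. Ednrb is the type B endothelin receptor, which on endothelium clears endothelin and drives nitric oxide release. Car4 is a membrane-anchored carbonic anhydrase on the capillary surface that speeds the exchange of carbon dioxide and bicarbonate. Tbx2 is a T-box transcriptional repressor, and Fibin is a small secreted protein first described in fin bud development. None of the 6 is made by aerocytes alone: Car4 is also known from alveolar macrophages, and Tbx2 and Kitl from mesenchyme. In whole lung, fewer cells of a type and less RNA per cell cannot be told apart.

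The samples carried the lung's defining transcripts in every library, with none of 7 lung identity genes, such as Sftpc and Ager, under 44.9 TPM. Depth is unknown, because TPM keeps none. Between 15537 and 16336 genes reached 1 TPM per library. Xist, a transcript of female cells, reached 10 TPM in 6 libraries, 1 each of control, bleomycin and Ad-GFP and 3 of Ad-ATP12A. Sex was thus not balanced over the groups, and Apln lies on the X chromosome. Between replicates, Xist was at 118 and 0.14 TPM in control batch 1 and at 144 and 0.14 TPM in bleomycin batch 2. It was at 167 and 0.24 TPM in Ad-GFP batch 1 and at 0.07 and 74.4 TPM in Ad-ATP12A batch 2. The replicates of those pairs were therefore not repeats of 1 lung. Scgb1a1, the club cell secretoglobin, lay under 1000 TPM in 3 libraries, control b2r1, bleomycin b2r2 and Ad-GFP b1r1. Control b2r1 also held the highest level of all 6 aerocyte genes among the controls and the highest mean log2(TPM + 1) of 16 pan-endothelial genes of any library, 7.66. Ad-GFP b2r1 stood apart from its group at Ednrb, Apln and Kitl, and Ad-ATP12A b1r2 at Ednrb. Both were low in Col1a1, the main scar collagen, at 205 and 181 TPM. The other exposed libraries held 139 (Ad-GFP b1r1) to 1191 TPM of Col1a1 and the controls 30.3 to 50.3. Atp12a itself was at 5.13, 2.96, 29.0 and 25.7 TPM in the Ad-ATP12A libraries, with the lowest in b1r2, and at 0.20 TPM or less in the other 12. For the 6 aerocyte genes, results that rest on these libraries are given with and without them. Calls of other named genes are given from all 16 libraries only.

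In control lungs the 6 genes were abundant and kept a single order in all 4 libraries, with Car4 highest, then Kitl, Tbx2, Ednrb, Fibin and Apln. On the TPM scale the control means were 196 ± 25.2 for Car4, 113 ± 11.0 for Kitl, 83.4 ± 22.4 for Tbx2, 52.8 ± 16.9 for Ednrb, 39.3 ± 12.2 for Fibin and 24.0 ± 7.09 for Apln (SD, n = 4 libraries). Car4 exceeded 96.7% of the genes tested by its mean control level, and Apln 66.3%. Neighbouring genes in this order differed by more than the control spread only for Car4 and Kitl, whose ranges did not overlap (168 to 224 against 99.0 to 122 TPM). The other neighbours overlapped in range, although their order was the same inside each library. That order broke in most exposed lungs. It remained whole in bleomycin b2r1 and in Ad-GFP b2r1. Ednrb lay below Apln in 8 of the 12 exposed libraries, and Tbx2 was the most abundant of the 6 in Ad-GFP b2r2 and Ad-ATP12A b2r1.

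The stretch of DNA just before the start of transcription is shown for 4 of the genes. Ednrb and Fibin, with the largest differences against control in bleomycin, are set beside Car4 and Kitl, which differed by less. Each line is the 200 bases before the start on the gene's own strand, 5′ to 3′, from RefSeq on GRCm38.p6, an earlier build than the GRCm39 (mm39) of the deposited table. RefSeq windows were matched for 5 of the 6 genes by symbol, not for Tbx2. Capitals mark matches to the 4 motifs searched on both strands.
Ednrb, chr14:103843702-103843901, minus strand: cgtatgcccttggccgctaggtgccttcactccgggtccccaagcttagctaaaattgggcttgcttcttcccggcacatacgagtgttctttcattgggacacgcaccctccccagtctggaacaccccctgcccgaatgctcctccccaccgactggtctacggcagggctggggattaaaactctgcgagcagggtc
Fibin, chr2:110362994-110363193, minus strand: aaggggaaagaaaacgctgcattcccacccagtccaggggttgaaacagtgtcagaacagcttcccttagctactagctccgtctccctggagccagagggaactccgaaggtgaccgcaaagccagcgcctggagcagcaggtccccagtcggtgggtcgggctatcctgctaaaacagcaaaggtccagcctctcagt
Car4, chr11:84957554-84957753, plus strand: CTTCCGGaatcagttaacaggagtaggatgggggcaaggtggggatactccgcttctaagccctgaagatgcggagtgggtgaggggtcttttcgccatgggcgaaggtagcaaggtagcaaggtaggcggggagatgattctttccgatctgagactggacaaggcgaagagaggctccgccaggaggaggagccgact
Kitl, chr10:100015621-100015820, plus strand: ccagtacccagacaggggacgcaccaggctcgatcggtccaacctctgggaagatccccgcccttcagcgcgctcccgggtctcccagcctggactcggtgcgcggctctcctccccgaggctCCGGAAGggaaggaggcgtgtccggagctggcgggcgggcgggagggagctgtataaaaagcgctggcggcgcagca

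ETS factors, which include Erg, are regulators of endothelial genes and bind around GGAA. The ETS motif CCGGAAG was found in Car4, on the opposite strand with its first base 200 bases before the start, and in Kitl, on the same strand 77 bases before it. Of 32851 windows of the same length, 6.3% held it. A second ETS motif, CAGGAAG, was in the window of Apln on the opposite strand (9.0% of windows). Neither the hypoxia response core ACGTG (14.0% of windows) nor the T-box motif AGGTGTGA (0.9%) occurred in any of the 5 windows. The shorter core GGAA was not searched by itself, and it also occurs unmarked in the windows of Ednrb and Fibin. A match is a run of letters and not a measured site.

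Ednrb, the endothelin receptor, was the most reduced of the 6. Control libraries held 38.8, 45.4, 77.2 and 49.8 TPM (b1r1, b1r2, b2r1 and b2r2, the order used throughout). Bleomycin libraries held 8.87, 9.92, 25.5 and 18.8 TPM. Ad-GFP libraries held 10.6, 7.90, 37.4 and 6.73 TPM. In both groups every library was below every control. The bleomycin values were higher in batch 2, and Ad-GFP b2r1 came close to the lowest control. Ad-ATP12A libraries held 6.44, 19.9, 7.91 and 6.48 TPM, again all below control, with b1r2 high for its group. The exposed groups overlapped one another throughout. Differences were tested by limma on log2(TPM + 1) with batch as a term over all 16 libraries, adjusted by Benjamini-Hochberg over the 17003 genes, with a threshold of 0.05. Ednrb fell by 1.76 (SE 0.464, adjusted p = 0.0192) in bleomycin, by 1.98 (adjusted p = 0.0149) in Ad-GFP and by 2.37 (adjusted p = 0.00380) in Ad-ATP12A, all on the log2 scale against control. Within batch 1 and batch 2 the differences were −2.05 and −1.46 in bleomycin, −2.08 and −1.87 in Ad-GFP, and −1.79 and −2.95 in Ad-ATP12A. The bleomycin call ended without bleomycin b1r1 (adjusted p = 0.0677) or b1r2 (0.0596), and the Ad-GFP call without Ad-GFP b1r2 (0.0563) or b2r2 (0.0552).

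**Figure D1:**
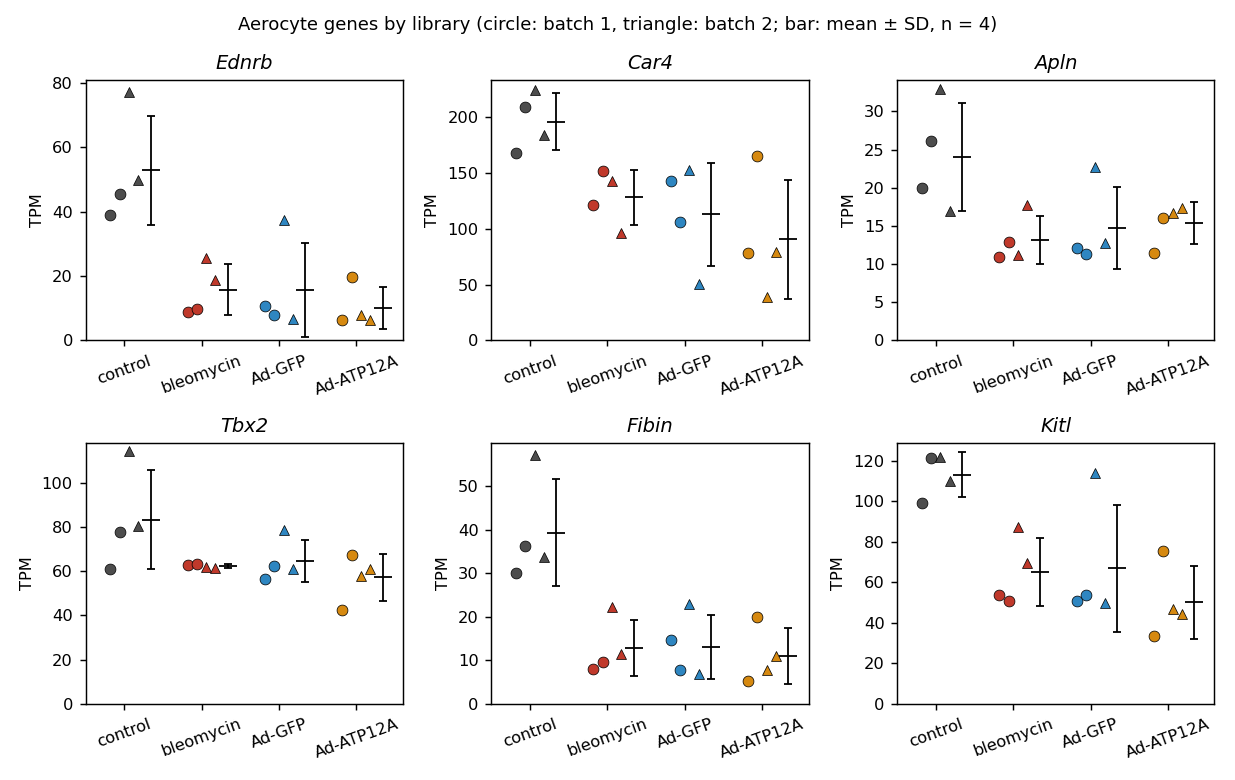
TPM of each of the 6 aerocyte genes by group, 1 point per library, circles for batch 1 and triangles for batch 2, with the mean ± SD of 4 libraries as a bar. Every exposed library lies below every control for Ednrb, Car4 and Fibin, whereas the groups overlap for Apln and Tbx2, and Ad-GFP b2r1 overlaps the controls for Kitl.

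Fibin, the secreted protein, moved much as Ednrb did. Control libraries held 30.0, 36.2, 57.2 and 33.7 TPM, and bleomycin libraries 8.06, 9.53, 22.3 and 11.3 TPM. Ad-GFP libraries held 14.5, 7.87, 22.9 and 6.77 TPM, and Ad-ATP12A libraries 5.12, 20.01, 7.79 and 10.9 TPM. No exposed library reached the lowest control, and the highest of each exposed group were bleomycin b2r1, Ad-GFP b2r1 and Ad-ATP12A b1r2, as for Ednrb. Fibin fell by 1.60 (SE 0.408, adjusted p = 0.0164) in bleomycin, by 1.63 (adjusted p = 0.0201) in Ad-GFP and by 1.86 (adjusted p = 0.00680) in Ad-ATP12A on the log2 scale by limma. By batch the differences were −1.80 and −1.41, −1.53 and −1.72, and −1.58 and −2.14. The bleomycin call ended without bleomycin b1r1 (adjusted p = 0.0592). In Ad-GFP it ended without Ad-GFP b1r2 or b2r2 (0.0731 each), control b1r2 (0.0561) or control b2r1 (0.0529).

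Kitl, the stem cell factor that general capillary cells receive through Kit, was lower by less. Control libraries held 99.0, 122, 122 and 110 TPM, the tightest control group of the 6 genes relative to its mean, and bleomycin libraries 53.9, 50.7, 87.3 and 69.6 TPM. Ad-GFP libraries held 50.7, 53.5, 114 and 49.6 TPM, and Ad-ATP12A libraries 33.7, 75.7, 46.9 and 44.2 TPM. Bleomycin and Ad-ATP12A lay wholly below control, while Ad-GFP b2r1 was within the control range. Kitl fell by 1.22 (SE 0.263, adjusted p = 0.00616) in Ad-ATP12A, by 0.81 (adjusted p = 0.0450) in bleomycin and by 0.84 (adjusted p = 0.0485) in Ad-GFP. By batch the differences were −1.06 and −0.57 in bleomycin, −1.06 and −0.62 in Ad-GFP, and −1.10 and −1.33 in Ad-ATP12A. The bleomycin call ended without any 1 of 11 libraries, which were all 4 controls, bleomycin b1r1, b1r2 and b2r2, Ad-GFP b1r1 and b1r2, and Ad-ATP12A b2r1 and b2r2 (adjusted p 0.0511 to 0.122). The Ad-GFP call ended without any 1 of 12, which were all 4 controls, bleomycin b1r1, b1r2 and b2r2, Ad-GFP b1r1, b1r2 and b2r2, and Ad-ATP12A b2r1 and b2r2 (0.0537 to 0.160). The Ad-ATP12A call of Kitl held without each library in turn.

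Apln, the other ligand, was the least abundant of the 6 in control lungs. Control libraries held 19.97, 26.1, 33.0 and 17.0 TPM, and bleomycin libraries 10.9, 12.9, 11.2 and 17.7 TPM. Ad-GFP libraries held 12.1, 11.3, 22.8 and 12.8 TPM, and Ad-ATP12A libraries 11.4, 16.1, 16.7 and 17.4 TPM. Each exposed group overlapped control, through bleomycin b2r2, Ad-GFP b2r1 and Ad-ATP12A b2r2. The bleomycin and Ad-ATP12A overlap was with control b2r2 alone (17.0 TPM), whereas Ad-GFP b2r1 also lay above control b1r1. Apln fell by 0.80 (SE 0.220, adjusted p = 0.0227) in bleomycin, with −0.89 and −0.71 by batch. Its differences in Ad-GFP (−0.68, adjusted p = 0.0552, −0.91 and −0.45 by batch) and Ad-ATP12A (−0.58, adjusted p = 0.0695, −0.71 and −0.45 by batch) did not pass. The bleomycin call ended without bleomycin b1r1 (adjusted p = 0.0691) or b2r1 (0.0528), or control b1r2 (0.0742) or b2r1 (0.0658). Without control b2r2, or without Ad-GFP b2r1, Apln passed in Ad-GFP (0.0130 and 0.0156) and in Ad-ATP12A (0.0147 and 0.0449).

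Car4, the carbonic anhydrase, was below control in every exposed library, with a wide spread inside the vector groups. Control libraries held 168, 209, 224 and 184 TPM, and bleomycin libraries 121, 152, 143 and 96.7 TPM. Ad-GFP libraries held 143, 106, 152 and 50.3 TPM, and Ad-ATP12A libraries 78.8, 166, 39.0 and 79.6 TPM. The highest exposed value, 166 TPM in Ad-ATP12A b1r2, lay just under the lowest control, 168 TPM. Car4 fell by 1.28 (SE 0.354, adjusted p = 0.0209) in Ad-ATP12A, and did not pass in bleomycin (−0.62, adjusted p = 0.234) or Ad-GFP (−0.90, adjusted p = 0.105). By batch the differences were −0.46 and −0.78 in bleomycin, −0.60 and −1.20 in Ad-GFP, and −0.71 and −1.85 in Ad-ATP12A. The Ad-ATP12A call ended without Ad-ATP12A b1r1 (adjusted p = 0.0536) or b2r1 (0.0724) or control b2r1 (0.0585). Without Ad-GFP b2r1, Car4 passed in Ad-GFP (−1.17, adjusted p = 0.0356), and fitted on the 8 libraries of control and bleomycin alone it passed in bleomycin (adjusted p = 0.0323).

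Alveolar macrophages also carry Car4. Of 7 alveolar macrophage genes, 1 fell in each comparison against control and none rose. That gene was Krt79, a keratin, which fell by 1.87 (adjusted p = 0.0244) in bleomycin, by 2.54 (adjusted p = 0.00813) in Ad-GFP and by 1.98 (adjusted p = 0.0167) in Ad-ATP12A. Siglecf, the lectin receptor that defines these cells in the mouse, had differences of −0.19, −0.95 and −0.76 and did not pass (adjusted p = 0.778, 0.134 and 0.191). Their summed level ranged from 522 to 1307 TPM in control, 722 to 1046 in bleomycin, 672 to 2289 in Ad-GFP and 380 to 4872 in Ad-ATP12A. Most of the highest sums was 1 gene, Chil3, at 4151 TPM in Ad-ATP12A b2r2 and 1961 TPM in Ad-GFP b2r2. No gene of the list was at 0 in any library. The part of these cells in Car4 was not tested.

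Tbx2, the T-box repressor, differed least. Control libraries held 60.9, 77.9, 114 and 80.4 TPM, and bleomycin libraries 62.7, 63.5, 62.0 and 61.6 TPM. Ad-GFP libraries held 56.4, 62.3, 78.6 and 61.2 TPM, and Ad-ATP12A libraries 42.3, 67.6, 58.1 and 61.0 TPM. Control b1r1 lay below all 4 bleomycin libraries, which spanned under 2 TPM, so every exposed group overlapped control. Tbx2 fell by 0.52 (SE 0.158, adjusted p = 0.0313) in Ad-ATP12A, with −0.36 and −0.68 by batch. It did not pass in bleomycin (−0.38, adjusted p = 0.113, −0.12 and −0.63 by batch) or in Ad-GFP (−0.34, adjusted p = 0.169, −0.21 and −0.46 by batch). The Ad-ATP12A call ended without any 1 of 5 libraries, which were Ad-ATP12A b1r1 (adjusted p = 0.0931), b2r1 (0.0806) and b2r2 (0.0692) and control b1r2 (0.0725) and b2r1 (0.0895), and also with a term for Xist (0.0679).

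As a set, the aerocyte genes lay below control in all 3 exposed groups. In bleomycin 4 of 6 fell (Ednrb, Apln, Fibin and Kitl), where 5.61% of all genes tested fell. In Ad-GFP 3 of 6 fell (Ednrb, Fibin and Kitl), against 4.52%, and in Ad-ATP12A 5 of 6 fell, all but Apln, against 9.49%. None of the 6 rose, where 13.2%, 9.16% and 13.3% of all genes did. The median log2 difference of the 6 was −0.81, −0.87 and −1.25, where the median of all genes tested was 0.05, 0.03 and 0.00. Every library of the group was below every control for 4 genes in bleomycin (Ednrb, Car4, Fibin and Kitl; 6.92% of all genes), 3 in Ad-GFP (Ednrb, Car4 and Fibin; 4.49%) and 4 in Ad-ATP12A (Ednrb, Car4, Fibin and Kitl; 10.8%). These comparisons share the 4 control libraries and are not independent of one another. The 6 genes were chosen with earlier results of these data known, so the counts beside the shares of all genes are a description.

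The counts leaned on single libraries. In bleomycin no member passed without bleomycin b1r1, and 2 passed without bleomycin b1r2, control b1r2 or control b2r1. In Ad-GFP none passed without Ad-GFP b1r2 or b2r2 and 1 without control b1r2 or b2r1. Without Ad-GFP b2r1, or without the 2 libraries that stood apart, 5 of 6 passed in Ad-GFP. In Ad-ATP12A 3 passed without Ad-ATP12A b1r1 or b2r1 or control b2r1. Without the 3 libraries low in Scgb1a1, none passed in bleomycin or Ad-GFP and 3 in Ad-ATP12A, with Ednrb at −1.68 (adjusted p = 0.0998) in bleomycin and −1.84 (0.0865) in Ad-GFP. In batch 2 alone none passed in bleomycin or Ad-GFP and 1 in Ad-ATP12A. In batch 1 alone 2 passed in bleomycin and 1 in Ad-ATP12A. Calls over all 17003 genes moved as well. Batch 2 alone called 29 in bleomycin, 68 in Ad-GFP and 2012 in Ad-ATP12A. Without the libraries low in Scgb1a1 the counts were 1468, 1375 and 2660. With a library left out they ran from 1484 to 3701, 870 to 2982 and 2225 to 4193. The difference of each of the 6 genes against control stayed below 0 in every one of these fits.

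**Figure D2:**
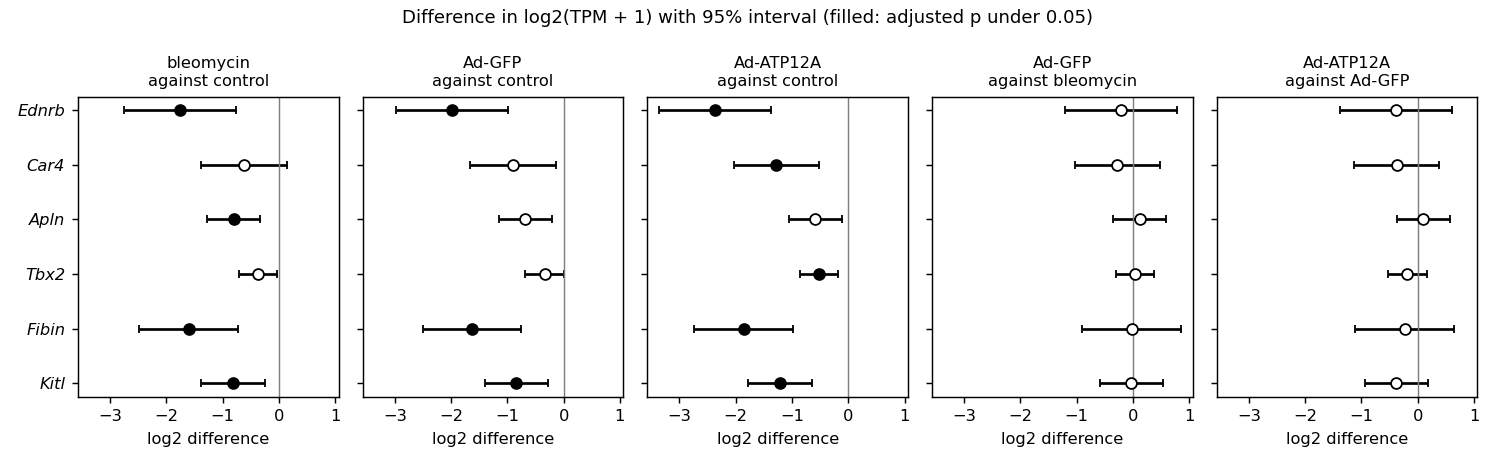
Difference in log2(TPM + 1) of the 6 genes in 5 comparisons, with 95% intervals from limma over 16 libraries; filled points passed at an adjusted p of 0.05. All 6 lie below 0 against control, and the intervals of the right-hand pair of panels all span 0.

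Between the exposed groups no difference in the aerocyte genes passed. Ad-GFP against bleomycin asks what the vector added to the injury, and 0 of 6 genes passed, where 2 of 17003 genes did in either direction (0.0118%) and 287 were under an unadjusted p of 0.05, with an unadjusted p of 0.443 (Car4) as the lowest of the 6. Ad-ATP12A against Ad-GFP asks what the ATP12A vector added to the GFP vector, and 0 of 6 passed, where 1 of 17003 did (0.00588%) and 413 were under an unadjusted p of 0.05, with 0.172 (Kitl) as the lowest of the 6. In that comparison the log2 differences and their 95% intervals were −0.39 (−1.39 to 0.60) for Ednrb, −0.38 (−1.13 to 0.38) for Car4 and −0.38 (−0.94 to 0.19) for Kitl. Fibin was at −0.23 (−1.11 to 0.64). The intervals of Ednrb, Car4 and Fibin reach below −1, so a further fall of that size remains possible. Narrower intervals were found for Apln, at 0.10 (−0.38 to 0.57), and Tbx2, at −0.18 (−0.52 to 0.16). By batch, Ednrb was 0.29 and −1.08 in Ad-ATP12A against Ad-GFP, so its sign differed between batches, and the test of that batch difference did not pass (adjusted p = 0.763). Atp12a differed between the same batches, at 4.05 TPM by mean in batch 1 and 27.4 in batch 2 of Ad-ATP12A, and its part in this was not tested.

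No batch difference was called in the 6 genes. Batch 2 against batch 1 called 3141 genes (18.5%), mostly higher, and 0 of the 6. The estimates were 0.46 for Ednrb (adjusted p = 0.340), 0.32 for Fibin (0.459), 0.28 for Apln (0.223), 0.26 for Kitl (0.350), 0.21 for Tbx2 (0.211) and −0.40 for Car4 (0.277). Car4 was thus the member with a lower estimate in batch 2. Without control b2r2 the batch difference of Apln passed (0.38, adjusted p = 0.0497). A fit of 8 group-by-batch means tested whether the effects against control differed by batch, and 0 of 6 genes passed in bleomycin, Ad-GFP or Ad-ATP12A, where 0.0647%, 2.36% and 2.80% of all genes did. At an unadjusted p the lowest of these were 0.138 for Car4 in Ad-ATP12A and 0.141 for Tbx2 in bleomycin.

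The 6 genes were next set against transcripts shared by endothelial cells. Of 16 pan-endothelial genes, 4 fell in bleomycin, 4 in Ad-GFP and 10 in Ad-ATP12A, with medians of −0.57, −0.60 and −0.70 and none higher. Tmem100, an endothelial membrane protein, fell by 1.35 (adjusted p = 0.0283) in bleomycin, and Tek, the angiopoietin receptor, by 1.00 (0.0223). Eng, a TGF-beta co-receptor, fell by 0.87 (0.0223) and Erg, an ETS factor of endothelium, by 0.59 (0.0415). In bleomycin 13 of the 16 genes lay below 0, called or not. The only ones above 0 were Sox17 at 0.03 (0.888), Esam at 0.02 (0.936) and Emcn at 0.01 (0.982), which did not pass. The mean log2(TPM + 1) of the 16 genes was 7.41 ± 0.175 in control, 6.88 ± 0.319 in bleomycin, 6.81 ± 0.411 in Ad-GFP and 6.64 ± 0.376 in Ad-ATP12A (SD, n = 4 libraries).

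With that level subtracted from each library and the whole table refitted, the 6 genes separated. Ednrb stayed lower, by 1.22 (adjusted p = 0.0120) in bleomycin, 1.37 (adjusted p = 0.00772) in Ad-GFP and 1.59 (adjusted p = 0.00140) in Ad-ATP12A. Fibin stayed lower by 1.07 (adjusted p = 0.0108), 1.02 (adjusted p = 0.0123) and 1.08 (adjusted p = 0.00397). Kitl was lower by 0.44 (adjusted p = 0.0332) in Ad-ATP12A and did not pass in bleomycin (−0.28, adjusted p = 0.183) or Ad-GFP (−0.24, 0.239). Thus 2, 2 and 3 of 6 genes passed below the endothelial level, where 0.912%, 0.788% and 0.994% of all genes did. On this scale the median of all genes tested was 0.58, 0.63 and 0.78, since the subtracted level was itself lower in exposed lungs. Of 7 alveolar fibroblast genes, 2, 2 and 3 also passed below it. Their medians were −0.42, −0.40 and −0.44, beside −0.27, −0.27 and −0.47 for the 6 aerocyte genes. Of the 16 pan-endothelial genes, 2, 3 and 2 passed below their mean level and 3, 2 and 3 above it.

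Car4, Apln and Tbx2 did not pass in this refit, and their intervals spanned 0. Car4 was at −0.09 (−0.64 to 0.46), −0.30 (−0.85 to 0.25) and −0.50 (−1.05 to 0.05) in bleomycin, Ad-GFP and Ad-ATP12A. Tbx2 was at 0.16 (−0.26 to 0.57), 0.26 (−0.15 to 0.68) and 0.25 (−0.16 to 0.67). Apln was at −0.27 (−0.71 to 0.17), −0.08 (−0.52 to 0.37) and 0.19 (−0.25 to 0.63). The Car4 estimate changed sign between batches, with 0.30 and −0.47 in bleomycin, 0.16 and −0.75 in Ad-GFP, and 0.12 and −1.12 in Ad-ATP12A. Ednrb and Fibin were below 0 in both batches in all 3 comparisons, from −0.96 to −2.22 for Ednrb and from −0.76 to −1.41 for Fibin.

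In this refit for bleomycin, both Ednrb and Fibin passed without each library in turn. In Ad-GFP Ednrb did too, and Fibin did except without Ad-GFP b2r2 (−0.84, adjusted p = 0.0560). In Ad-ATP12A the call of Kitl ended without Ad-ATP12A b1r1, b2r1 or b2r2, or control b1r2 or b2r2 (adjusted p 0.0588 to 0.126), and Car4 passed without Ad-ATP12A b1r2 (−0.64, 0.0458) or control b1r1 (−0.68, 0.0422). Without the 3 libraries low in Scgb1a1, neither Ednrb (adjusted p = 0.0852 and 0.0717) nor Fibin (0.0932 and 0.0562) passed in bleomycin or Ad-GFP. Set against the mean of 7 general capillary genes instead, Ednrb and Fibin passed in all 3 comparisons and no other member did (2 of 6 each, where 0.353%, 0.312% and 0.453% of all genes were lower), with Ednrb at −1.20, −1.24 and −1.41 and Fibin at −1.05, −0.89 and −0.90.

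**Figure D3:**
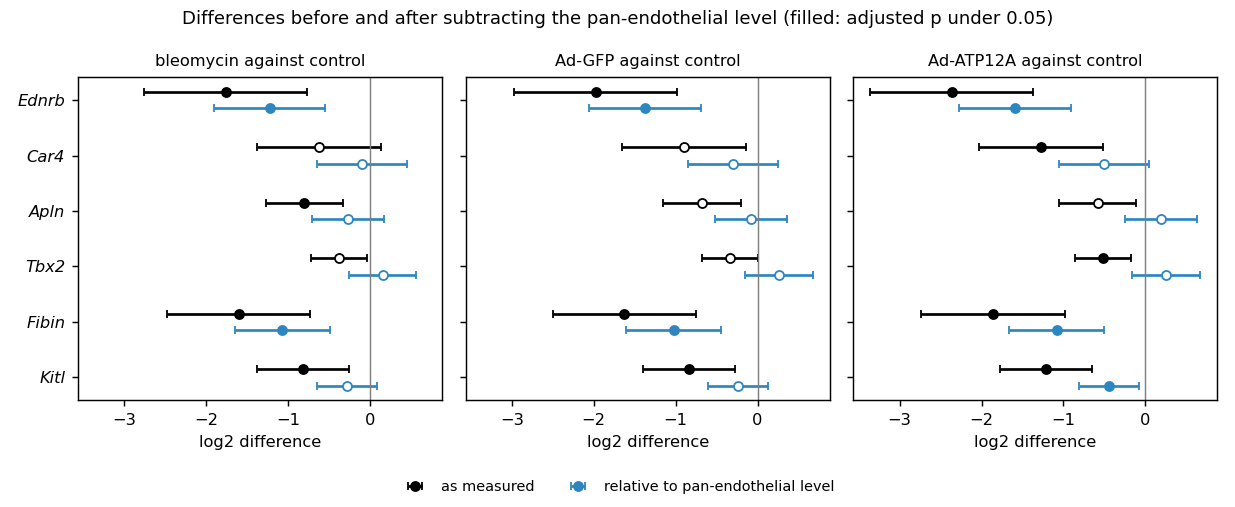
Log2 differences of the 6 genes against control as measured (black) and after subtracting the mean of 16 pan-endothelial genes (blue), with 95% intervals; filled points passed at an adjusted p of 0.05. Ednrb and Fibin stay below 0 after subtraction in all 3 panels, while the blue intervals of Car4, Apln and Tbx2 span 0.

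A ratio of 2 genes in the same library needs no such reference. After the values had been seen, the log2 ratio of (TPM + 1) was compared between the 12 exposed and 4 control libraries for all 15 pairs of the 6 genes. The test was an exact two-sided permutation test relabelled within batch, with 784 relabellings, a smallest possible p of 0.00128 and Benjamini-Hochberg adjustment over the 15. It pools bleomycin, Ad-GFP and Ad-ATP12A. Spreads were also unequal, with an SD of 0.085 in control and 0.689 in exposed libraries for Ednrb to Tbx2. Its p-values therefore do not separate a shift of the mean from a difference in spread. In all, 9 of 15 ratios differed. The 15 ratios are built from the same 6 genes and are not separate results. Ratios of other gene pairs were not tested, so no share stands beside this count. The ratios of Ednrb to Car4, Apln, Tbx2 and Kitl fell by 1.10, 1.35, 1.62 and 1.08 (exact permutation, adjusted p = 0.00319 each, the smallest the relabellings and adjustment gave here). The Ednrb to Tbx2 ratio was −0.77 to −0.56 in control and −3.05 to −1.05 in exposed libraries, so all 12 lay below the controls. Ratios of Fibin moved the same way: Fibin to Kitl fell by 0.74 (exact permutation, adjusted p = 0.00319), again with all 12 exposed libraries below the controls.

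Car4, Apln and Tbx2 each rose relative to Fibin, by 0.76 (exact permutation, adjusted p = 0.00547), 1.01 (0.00957) and 1.28 (0.00319). Tbx2 rose relative to Kitl by 0.55 (0.0213). Ednrb and Fibin themselves did not separate past the threshold (−0.34, exact permutation, adjusted p = 0.145), although 10 of 12 exposed libraries lay below the controls. The ratio of Car4 to Kitl was 0.02 apart (adjusted p = 0.904), with 0.48 in batch 1 and −0.44 in batch 2. All 9 differing ratios kept their sign in both batches. With each library left out in turn, 8 to 10 ratios differed. The call for Tbx2 to Kitl ended without control b1r1 or b1r2 (0.0765 each), control b2r2 (0.115), Ad-GFP b2r2 or Ad-ATP12A b2r1 (0.0510 each), and Car4 to Tbx2 passed without bleomycin b2r1 (0.0485).

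**Figure D4:**
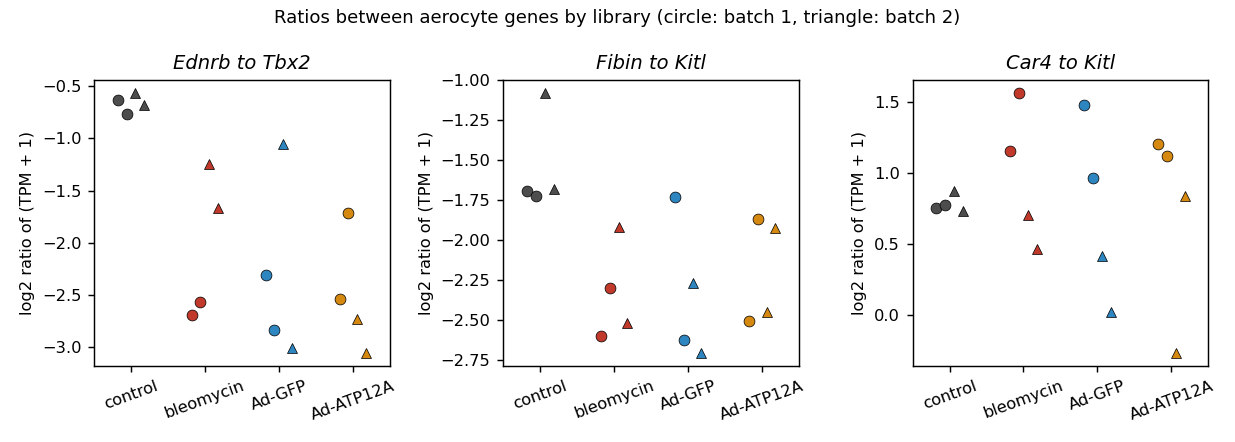
Log2 ratio of (TPM + 1) for 3 pairs of aerocyte genes by group, 1 point per library, circles for batch 1 and triangles for batch 2. All exposed libraries lie below the controls for Ednrb to Tbx2 and for Fibin to Kitl, while for Car4 to Kitl the exposed libraries lie mostly above the controls in batch 1 and mostly below in batch 2.

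Further genes enriched in aerocytes were lower in part. Of 6, 1 fell in bleomycin, 1 in Ad-GFP and 5 in Ad-ATP12A, with medians of −0.51, −0.64 and −0.83. Chst1, a carbohydrate sulfotransferase, fell in all 3, by 0.52 (adjusted p = 0.0173), 0.83 (0.00239) and 0.75 (0.00260), from 15.02 ± 2.12 TPM in control to 10.1 ± 0.619, 8.08 ± 1.54 and 8.54 ± 1.08. In Ad-ATP12A, Rprml fell by 1.41 (0.0164), Nckap5 by 1.02 (0.0386), Prx, which encodes periaxin, by 0.91 (0.0388) and Emp2, an epithelial membrane protein also abundant in alveolar type 1 cells, by 0.52 (0.0438). Cdkn2b, a cyclin-dependent kinase inhibitor, had positive differences of 0.37, 0.23 and 0.32 that did not pass (adjusted p = 0.326, 0.570 and 0.375).

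The general capillary cell, the aerocyte's partner and progenitor, was represented by 7 genes. Of these, 2 fell in bleomycin, 1 in Ad-GFP and 3 in Ad-ATP12A, with medians of −0.49, −0.82 and −0.90. Ptprb, an endothelial phosphatase, fell in all 3, by 1.18 (adjusted p = 0.0105), 1.10 (0.0197) and 1.24 (0.00705). Sema3c, a semaphorin, fell by 1.17 (0.0470) in bleomycin and 1.40 (0.0198) in Ad-ATP12A. Gpihbp1, which carries lipoprotein lipase to the capillary surface, did not pass (−0.53, −0.44 and −0.44, adjusted p = 0.0704, 0.140 and 0.111).

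Receptors of the aerocyte ligands sit on that partner. Kit, the receptor of Kitl, fell by 0.90 (adjusted p = 0.0212) in Ad-ATP12A, from 70.4 ± 12.1 to 37.3 ± 6.83 TPM, and did not pass in bleomycin (−0.32, 0.399) or Ad-GFP (−0.43, 0.261). Aplnr, the receptor of apelin, was at 0.19 (0.83), −0.82 (0.288) and −1.28 (0.0789) and passed in none. Its bleomycin libraries ran from 13.2 to 49.3 TPM against 12.6 to 27.5 TPM in control. Apela, the other ligand of Aplnr, was listed at 0 in some libraries, had a mean under 0.2 TPM in each group and did not enter the tests.

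On the endothelin side, no change was called in the main ligand or in the second receptor. Ednra, the type A receptor of smooth muscle and fibroblasts, was at 36.1 ± 4.09 TPM in control and 39.2 ± 12.3, 39.3 ± 13.9 and 39.5 ± 14.6 TPM in the exposed groups, with differences of 0.08, 0.05 and 0.05 (adjusted p = 0.835, 0.892 and 0.893). Edn1, endothelin-1, was at −0.54, −0.22 and −0.03 (0.187, 0.622 and 0.949). Ece1, which cleaves endothelin precursors, fell by 0.89 (0.0313) in bleomycin and 0.93 (0.0225) in Ad-ATP12A, and its −0.83 in Ad-GFP did not pass (0.0503). Edn3, the ligand that binds mainly the type B receptor, fell by 1.55 (0.0374) in Ad-ATP12A and had differences of −1.09 (0.137) and −1.09 (0.154) in bleomycin and Ad-GFP. Of 7 genes of this pathway 4 entered the tests. Edn2, Ece2 and Kel lay under 1 TPM by group mean.

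Kdr, the main VEGF receptor, on which aerocytes depend, fell by 1.13 (adjusted p = 0.0201) in bleomycin, 1.41 (0.00995) in Ad-GFP and 1.57 (0.00343) in Ad-ATP12A. Control libraries held 123, 131, 190 and 118 TPM of Kdr. Exposed libraries held 34.4 to 99.3 TPM, apart from 124 TPM in Ad-GFP b2r1, the library that was also high in Ednrb and Kitl. Of 10 VEGF pathway genes, Kdr fell and Pgf, the placental growth factor, rose in all 3 comparisons, Pgf by 1.62 (0.00368), 1.53 (0.00716) and 1.81 (0.00170). Vegfa, which alveolar type 1 cells supply to aerocytes, was at −0.39 (0.235), −0.29 (0.396) and −0.64 (0.0510). In Ad-ATP12A the co-receptor Nrp1 also fell by 0.70 (0.0453) and Nrp2 rose by 0.67 (0.0460).

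Among relatives of the members, Tbx3, the closest T-box relative of Tbx2, fell by 0.77 (adjusted p = 0.0465) in bleomycin and 1.10 (0.00816) in Ad-ATP12A, with −0.79 (0.0510) in Ad-GFP. Tbx4 and Tbx5, T-box factors of lung mesenchyme, were between −0.22 and −0.01 and did not pass (adjusted p 0.436 to 0.972). Of 10 further carbonic anhydrases tested, Car13, a cytosolic form, rose in all 3 comparisons, by 0.83 (0.0150), 0.74 (0.0315) and 1.06 (0.00384), and none fell in bleomycin or Ad-GFP. In Ad-ATP12A the membrane form Car14 fell by 1.20 (0.0236) and Car11, a relative without enzyme activity, by 0.85 (0.0120). Car2, the common cytosolic form, was at 0.03, −0.09 and −0.25 (0.934, 0.772 and 0.319).

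Other vessel classes did not all share the direction. Of 5 venous genes, Ackr1, the chemokine-binding receptor of venules, rose in all 3 comparisons, by 2.85 (adjusted p = 0.00895), 2.06 (0.0473) and 2.51 (0.0143), from 0.663 ± 0.317 TPM in control to 11.2 ± 3.70 in bleomycin. Of 5 lymphatic genes, Prox1, the lymphatic master factor, rose by 0.80 (0.00507), 0.81 (0.00679) and 0.80 (0.00436). Prox1 was low in control, at 0.96 to 1.17 TPM. Reln, a secreted glycoprotein, rose by 0.80 (0.0396) in bleomycin and 0.83 (0.0419) in Ad-GFP. Lyve1 had the lowest lymphatic estimates, at −0.70, −0.91 and −0.82, and did not pass. In each comparison 2 of 5 venous and 2 of 5 lymphatic genes were below 0, none of them called. Among 6 arterial genes, Bmx, a kinase, fell by 1.17 (2.3e-04), 1.02 (9.4e-04) and 1.05 (3.8e-04). Efnb2, the arterial ephrin, fell by 0.98 (0.0349) in bleomycin and 0.98 (0.0302) in Ad-ATP12A. Gja4, a connexin, rose by 0.73 (0.0196) in bleomycin and 0.65 (0.0284) in Ad-ATP12A. The arterial list thus had 2, 1 and 2 of 6 genes lower, with medians of −0.75, −0.60 and −0.75. List medians for venous genes were 0.15, 0.24 and 0.44, and for lymphatic genes 0.03, 0.21 and 0.05.

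**Figure D5:**
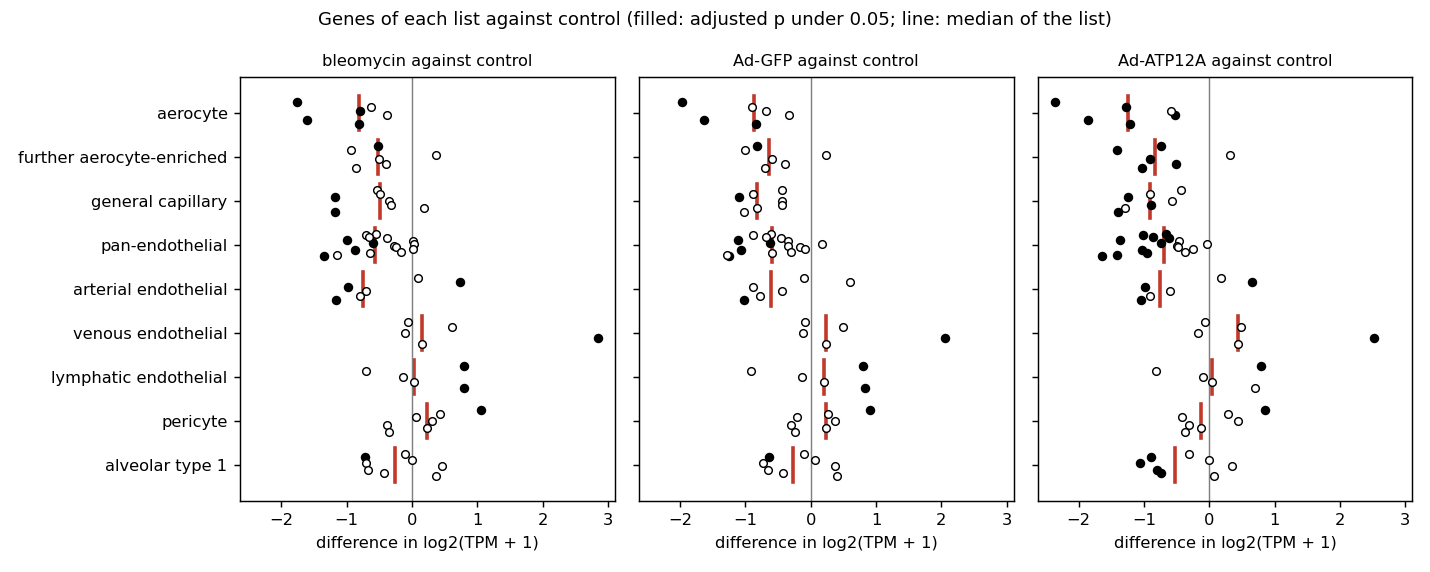
Log2 differences against control of the genes of 9 cell type lists, 1 point per gene, filled where the adjusted p was under 0.05, with the list's median as a red line. Aerocyte genes have medians of −0.81, −0.87 and −1.25, and arterial genes of −0.75, −0.60 and −0.75. The venous, lymphatic and pericyte lists lie nearer 0 with single genes, such as Ackr1, above it.

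Cells that touch the aerocyte gave these values. Of 8 alveolar type 1 genes, 1 fell in bleomycin, 1 in Ad-GFP and 4 in Ad-ATP12A, with medians of −0.26, −0.27 and −0.53. Hopx, a homeodomain factor, fell in all 3, by 0.71 (adjusted p = 0.00885), 0.64 (0.0198) and 0.89 (0.00253), while Ager, the abundant type 1 receptor, was at −0.10, −0.11 and −0.31 (0.762, 0.751 and 0.269). Of 7 pericyte genes, Cspg4, a proteoglycan, rose in all 3 and none fell, and their summed level was 175 to 257 TPM in control and 176 to 279 TPM in exposed libraries. Of 7 alveolar fibroblast genes, 3 fell in each comparison, with medians of −0.95, −1.001 and −1.21, beside −0.81, −0.87 and −1.25 for the 6 aerocyte genes. Their summed level was 2177 to 4260 TPM in control, 628 to 1428 in bleomycin, 519 to 1752 in Ad-GFP and 436 to 1153 in Ad-ATP12A. Most of the control sums was 1 gene, Inmt, at 1421 TPM in the lowest (b1r1) and 3202 TPM in the highest (b2r1). No gene of these lists was at 0 in any library. Red blood cell genes fell for 5 of 5 in bleomycin and 1 of 5 in each vector group, with summed levels of 16514 to 50936.5 TPM in control and 5779 to 14084 in bleomycin. The part of these cells in the aerocyte differences was not tested.

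Across the 16 libraries the 6 genes varied together to unequal degrees, and since the libraries share groups and batches the correlations are a description. Pearson's r of log2(TPM + 1) was 0.97 for Ednrb with Kitl, 0.96 for Ednrb with Fibin and 0.93 for Fibin with Kitl, and lowest for Car4 with Apln, at 0.42. With group and batch means taken out, the same 3 pairs were at 0.93, 0.88 and 0.85, Car4 with Fibin at 0.89 and Car4 with Apln at 0.39. Thus Ednrb, Fibin and Kitl also varied together inside groups, and Car4 varied with Fibin and with Ednrb (0.81). These values include the libraries that stood apart, and were not computed without them. The genes most like the mean z-score of the 6, by r over 16 libraries, were Sept4 (0.979), Ehd4 (0.978), Jun (0.976), Gnao1 (0.975), Fmo1 (0.972), Tbx3 (0.970), Ablim3 (0.967) and Tmcc2 (0.967). With group and batch means taken out they were Nkd1 (0.969), Prx (0.965), Sept4 (0.963), Myzap (0.959), Zbtb14 (0.957), Fmo1 (0.955), Notch4 (0.954) and Tmem204 (0.948), of which Prx stands in the list of further aerocyte genes.

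Single members had different nearest genes. For Ednrb they were Synm (r = 0.980), Nhlrc2 (0.979) and Pcolce2 (0.978), and for Fibin Bmp6 (0.979), Fgfr4 (0.977) and Aldh2 (0.973). Those of Kitl were Sept4 (0.969), Tmcc2 (0.967) and Myzap (0.965). Car4 was nearest to Tmem205 (0.954), Rtkn2 (0.943), an alveolar type 1 gene, and Aard (0.937). Tbx2 was nearest to Klc1 (0.935), Inafm2 (0.926) and Rab28 (0.918), and Apln to Tspyl1 (0.916), Nemp1 (0.911) and Epn2 (0.905). Synm, which encodes the intermediate filament protein synemin, fell by 1.31 (adjusted p = 0.0122), 1.42 (0.0114) and 1.71 (0.00271) in bleomycin, Ad-GFP and Ad-ATP12A, and Bmp6, a bone morphogenetic protein, by 1.79 (0.00662), 1.79 (0.00982) and 2.07 (0.00285).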

How the data were processed

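The deposited table held values that the authors had put on a log2 scale after adding 1 to each TPM, as its name and column sums show, for 53647 genes by Ensembl identifier in 16 libraries of total RNA from mouse lung. Per the submitters' processing notes, STAR and RSEM were used with GRCm39 (mm39); versions, annotation release and strand setting are not given in the sources used here. Symbols came from GENCODE M21 on GRCm38, which matched 52093 identifiers and not 1554. The titles gave each sample's group, batch and number. No read counts were used, so depth is unknown and no count model was fitted.

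The 17003 genes that reached 1 TPM in 4 or more libraries were tested with limma 3.58.1 in R 4.3.3, on log2(TPM + 1), with a trended prior, 4 group means and batch, two-sided, adjusted by Benjamini-Hochberg over all genes tested at 0.05. Differences on this scale understate those of low genes. A second fit subtracted each library's mean log2(TPM + 1) of 16 pan-endothelial genes. Scripts were tested on simulated data, and Python 3.11.15 with matplotlib 3.10.9 drew the figures. The members and gene lists were chosen with earlier results of these data known. Named genes were the 6 members, all ligand and receptor genes, up to 4 genes per list with the smallest p in bleomycin against control, those named as not passing, and the nearest genes by correlation; genes of the VEGF, T-box and carbonic anhydrase lists and of the other cell type lists named beyond these were chosen after their values were seen. The ratio test, and the fit without 2 libraries that stood apart, were added after the values were seen. Alternatives were another pseudocount, filters, scalings, weights, prior, batch and replicate terms, single batches, a term for Xist and sets of libraries left out.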

Additional observations from a re-analysis of the deposited data

Results flagged for a closer look

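A library was marked where its TPM stood far from the other 3 of its group, by the gap to the nearest of them over the group's range (Dixon's test at the 95% level). This held in 4 of the 24 sets of a gene in a group, all at the high end and in 2 libraries. Chance alone marks about 1 in 20 sets that are independent and normally spread. These sets share libraries and the genes vary together, so no excess is read from the count. Ad-GFP b2r1 held 37.38 TPM of Ednrb, 22.78 TPM of Apln and 114.2 TPM of Kitl. Ad-ATP12A b1r2 held 19.85 TPM of Ednrb. Both libraries were also low in Col1a1 for exposed lungs (205 and 181 TPM). Ad-GFP b1r1, which was not marked, was lower still (139 TPM). Ad-GFP b2r1 had the highest pan-endothelial level of the exposed libraries (7.43 on the mean log2 scale). The part of low Col1a1 or of the pan-endothelial level in the aerocyte values was not tested.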

How the results depend on the processing

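The alternatives on Scgb1a1 and Xist were chosen with earlier results known. TPM keeps no depth, and 4 libraries a group limit what can pass. All 558 differences of the 6 genes against control under the alternatives kept their direction; 84 fell short of the threshold and 16 newly passed. Beyond fewer libraries or genes tested, the cause was not tested. Replicate numbers did not pair the samples (1 of 12 same-number pairs correlated above 0.1, r −0.158 to 0.212). With a replicate block 4, 3 and 5 members fell in bleomycin, Ad-GFP and Ad-ATP12A, as in the fit without it, and 0 genes of all passed in Ad-ATP12A against Ad-GFP.

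The number of members lower in bleomycin was 2 with no filter and in batch 1 alone, and 0 in batch 2 alone and without the libraries low in Scgb1a1. In Ad-GFP it was 0 in batch 2 alone and without those libraries, and 5 without the 2 libraries that stood apart. In Ad-ATP12A it was 1 in either batch alone, and 3 with no filter or without the libraries low in Scgb1a1. Relative to the pan-endothelial level it was 0 in bleomycin and Ad-GFP in batch 2 alone and without the libraries low in Scgb1a1, and 1 in Ad-GFP and Ad-ATP12A in batch 1 alone. With each library left out it ran from 0 to 4, 0 to 5 and 3 to 6 in the 3 comparisons against control, and from 1 to 2 in Ad-GFP relative to the endothelial level.

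Counts over all genes moved more. In bleomycin 7613 passed with array weights, 29 in batch 2 alone, 934 with a minimum log2 fold change of 1, 1468 without the libraries low in Scgb1a1 and 1484 to 3701 with a library left out. In Ad-GFP the counts were 5013, 68, 749, 1375 and 870 to 2982, with 3647 in batch 1 alone and 963 when the 8 libraries of the 2 groups compared were fitted alone. In Ad-ATP12A they were 2012 in batch 2 alone, 1228 with the minimum fold and 2225 to 4193 with a library left out. Batch 2 against batch 1 had 5018 with array weights, 1923 with median-ratio scaling, 1875 with no filter, 0 without the libraries low in Scgb1a1, 1428 without the 2 libraries that stood apart and 1602 to 4943 with a library left out. Ad-GFP against bleomycin had 0 in either batch alone, with no filter and without the libraries low in Scgb1a1, 0 to 3 with a library left out, and 1 with the mean filter of 5 TPM, median-ratio scaling, quantile normalization, no batch term, a pseudocount of 0.1, the 8 libraries alone or the 2 libraries left out. Ad-ATP12A against Ad-GFP had 0 in batch 1 alone, with the mean filter, no filter, the term for Xist, the 8 libraries alone and without the libraries low in Scgb1a1, and 0 to 2 with a library left out.

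Estimates that changed sign were all uncalled in the fit as reported. In Ad-GFP against bleomycin they were Tbx2 at 0.00, Kitl at 0.038 and Fibin at 0.088 with array weights; Apln at −0.018, Tbx2 at −0.088 and Fibin at 0.27 in batch 1 alone; Fibin at 0.0021 and Kitl at 8.0e-04 with median-ratio scaling; Fibin at 0.0071 with quantile normalization; Kitl at 0.041 without the libraries low in Scgb1a1; and Tbx2 at −0.018 and Apln at −0.059 without the 2 libraries that stood apart. With a library left out the ranges were −0.064 to 0.23 for Apln, −0.55 to 0.023 for Car4, −0.70 to 0.15 for Ednrb, −0.30 to 0.29 for Fibin, −0.29 to 0.14 for Kitl and −0.030 to 0.099 for Tbx2. In Ad-ATP12A against Ad-GFP, Ednrb was 0.29 in batch 1 alone and −0.86 to 0.082 with a library left out, Apln was −0.0062 in batch 2 alone and −0.0045 to 0.28, and Fibin was −0.64 to 0.044. Relative to the pan-endothelial level, Car4 was 0.30, 0.16 and 0.12 in batch 1 alone in bleomycin, Ad-GFP and Ad-ATP12A. In bleomycin it was 0.084 without the libraries low in Scgb1a1 and −0.27 to 0.066 with a library left out. There Tbx2 was −0.32 and −0.015 in batch 2 alone in bleomycin and Ad-GFP. Apln in Ad-GFP was 0.034 without the libraries low in Scgb1a1, −0.17 to 0.015 with a library left out, and 0.055 relative to the general capillary level. The Car4 to Kitl ratio was −0.024 to 0.086 with a library left out.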
